A study of Mus musculus with 6 samples.

Results

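The respiratory chain of the inner mitochondrial membrane is built from 5 protein complexes, and most of their subunits are encoded in the nucleus. Their RNA was measured in the livers of L1-Tg mice and WT mice. The genes were taken as those whose symbol begins with Nduf, Uqcr, Cox4, Cox5, Cox6, Cox7, Cox8 or Atp5, together with Sdha, Sdhb, Sdhc, Sdhd and Cyc1, where a probe on the array carried a RefSeq name that led to the symbol. This gave 94 genes from 125 probes, of 37074 genes on the array. Among them 84 encode subunits, 36 in complex I, 4 in complex II, 9 in complex III, 18 in complex IV and 17 in complex V. The other 10 share a prefix without being counted here as subunits: the complex I assembly factors Ndufaf1 to Ndufaf8, the supercomplex factor Cox7a2l, and Ndufa4l2, a relative of Ndufa4.

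L1-Tg mice express human NPC1L1, a cholesterol transporter, in hepatocytes from the APOE promoter. They were hemizygous animals of the line B6;D2-Tg(APOE-NPC1L1)20Lqyu/J, backcrossed for at least 8 generations to C57BL/6J, and the controls were their WT littermates. All animals were male and received a CFD, the control fat diet of the study. The general methods give 6 to 12 weeks as the age of the mice, without a separate age for those on the arrays. Each group had 3 arrays, and each array held labeled RNA pooled from 2 or 3 livers, and replicate error here is that between pools. The transgene product is human and was not analysed here.

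Complex I oxidizes NADH, complex II oxidizes succinate, complex III passes their electrons from ubiquinol to cytochrome c, and complex IV hands them to oxygen. Complexes I, III and IV pump protons, and complex V, the ATP synthase, uses the resulting gradient to make ATP. Liver depends on this chain for gluconeogenesis, urea synthesis and the oxidation of fatty acids. Several complex IV subunits have isoforms for muscle, lung or testis beside the form that liver uses.

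Values are on the log2 scale, as the background-corrected signal of a probe minus the 75th percentile of its array, and are called scaled signal below. They compare 1 probe between arrays and do not rank genes by RNA amount. The 75th percentile signals ran from 297 to 378, 53.1% to 59.2% of probe spots per array were well above background, and no spot was saturated. Pearson's r across genes was 0.985 to 0.994 within groups and 0.979 to 0.992 between them. All 8 hepatocyte markers were well above background on all 6 arrays. L1-Tg replicate 2 had a summed pancreas marker signal of 38.8 against 2.17 to 3.21 on the other arrays, and WT replicate 1 had the lowest summed Kupffer cell marker signal, 60.5 against 79.5 to 128. WT replicate 1 also had the lowest share of spots well above background. All 6 arrays lay on 1 slide, with WT arrays in its row 1 and L1-Tg arrays in row 2, so row and genotype cannot be told apart.

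Respiratory chain RNA differed little between the genotypes. Of the 94 genes, 91 were tested because a probe exceeded background clearly on every array of one genotype or of both, and 0 passed an adjusted p of 0.05 in limma, where 0.13% of the 22351 genes tested did. The smallest adjusted p was 0.542 in limma, for Cox6a2. At an unadjusted limma p under 0.05 there was 1 higher gene, Cox6a2, beside 4.54% of all genes, and 1 lower gene, Ndufv1, beside 4.32%. With unmoderated variances limma gave 0 adjusted calls among all genes, so the 0 among the members says nothing about them. There 2 higher and 6 lower members had an unadjusted limma p under 0.05, beside 3.99% and 4.24% of all genes. With an intensity trend limma called 34 of all genes and 0 members at the adjusted p. There 1 higher and 3 lower members had an unadjusted p under 0.05, beside 4.73% and 4.65%.

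The precision behind this was high for most subunits. For 77 tested subunits without the tissue isoforms of complex IV, the mean in L1-Tg mice lay between 84.2% and 111% of the WT mean. The 95% interval of every one of these 77 differences lay inside ±0.5 on the log2 scale, that is between 70.7% and 141% of WT. Among all genes tested this held for 53.6%. The median standard deviation between arrays of a group was 0.087 for the members and 0.17 for all genes tested. An intensity-matched comparison was not made.

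**Figure D1:**
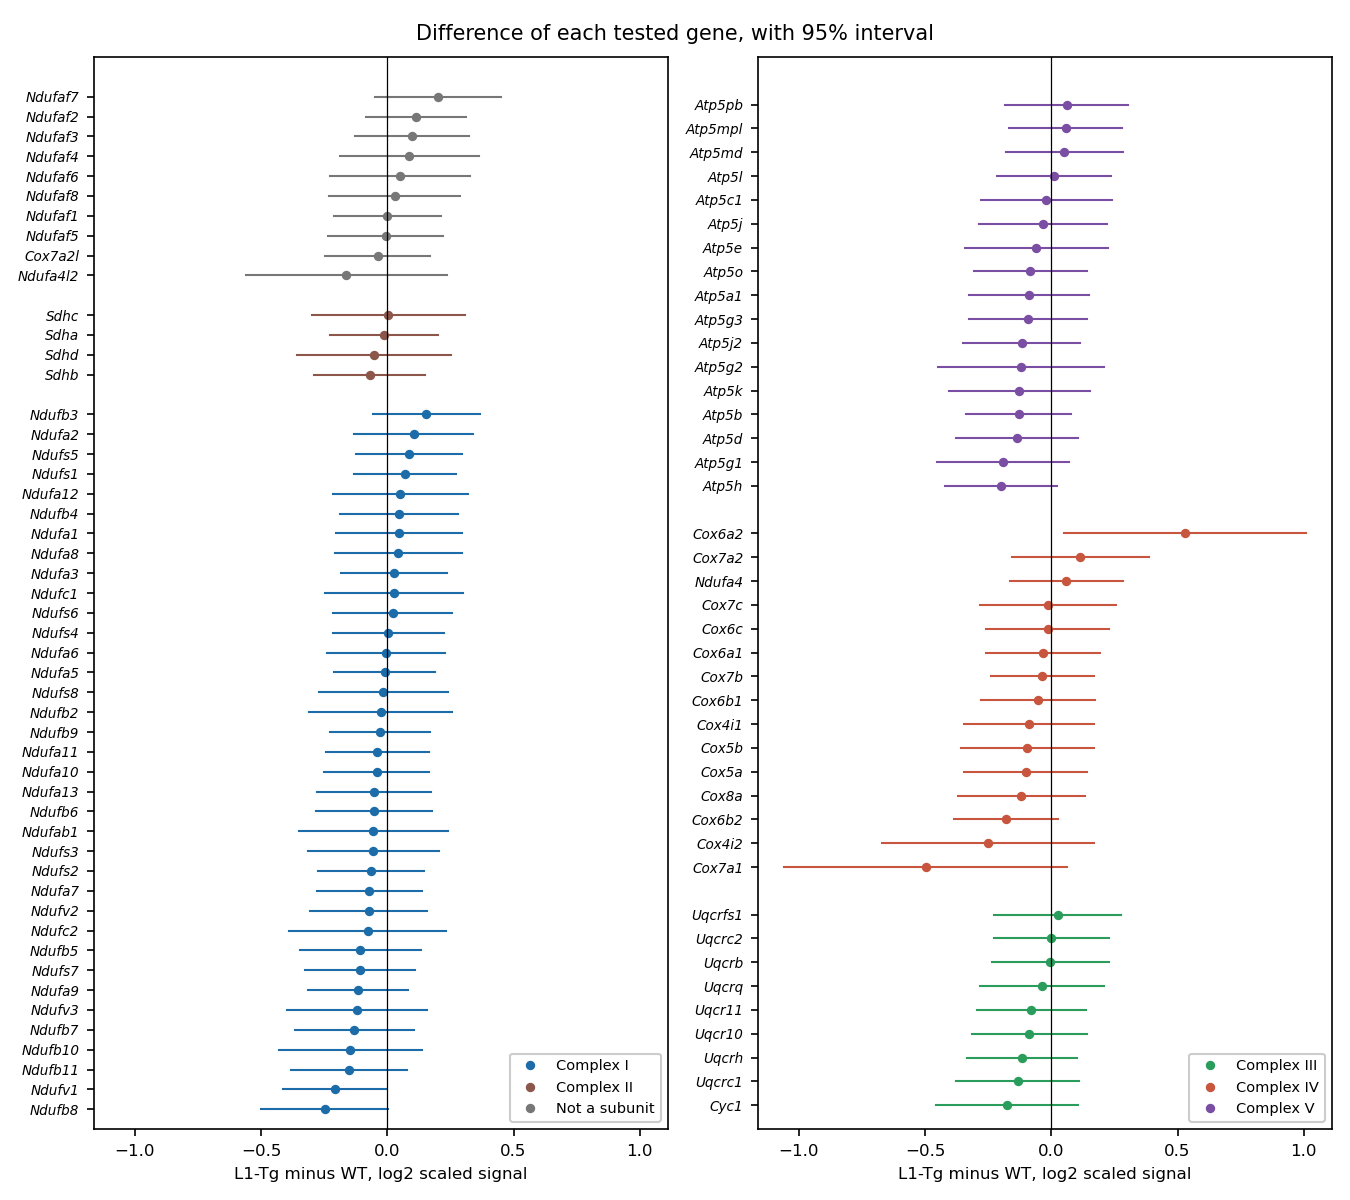
Each point is the L1-Tg minus WT difference of 1 tested gene in log2 scaled signal (3 arrays per group), and each bar is its 95% limma interval. Most points lie within 0.25 of 0, and the widest bars belong to Cox7a1, Cox6a2 and Cox4i2.

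Of the 81 tested subunits 60 were lower and 21 higher in L1-Tg mice, with a median difference of −0.052, beside −0.031 for all genes tested, of which 56.9% were lower. At the same scaling 7 of 8 hepatocyte markers (median −0.12) and 62 of 78 cytosolic ribosomal protein genes (median −0.056) were also lower. Of these ribosomal genes 23 were lower after quantile normalization (median 0.043) and 18 when array medians were subtracted (median 0.052). All 6 Kupffer cell markers were higher (median 0.31, or 0.11 without WT replicate 1). None of these marker and ribosomal genes passed the adjusted p in limma, beside 0.13% of all genes tested. Their part in the subunit values was not tested. The direction of the subunits followed the scaling between arrays: the subunit median was 0.037 after quantile normalization and 0.056 when array medians were subtracted, and then 26 and 21 of the 81 subunits were lower, 32.1% and 25.9%, beside 46.5% and 33.7% of all genes. The median of all genes moved from −0.031 to 0.077 with array medians. Measured against all genes in the same fit, the subunits stood at −0.021, a value that a scaling by 1 value per array cannot change. They stood at −0.0082 after normexp background correction, at 0.022 after quantile normalization, at 0.025 without the filter on dim probes and at 0.0034 without WT replicate 1. The sign of the subunit median thus depended on the normalization.

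The complexes were set side by side within each array, as the median deviation of their subunits from the WT mean. With the 75th percentile as scale, WT replicate 1 stood above the other 5 arrays in all 5 complexes. Its medians were 0.087 in complex I, 0.16 in complex II, 0.10 in complex III, 0.095 in complex IV and 0.13 in complex V. The other 2 WT arrays lay between −0.070 and −0.023 over the 5 complexes. The L1-Tg arrays lay between −0.051 and −0.0018 in complex I, −0.057 and −0.025 in complex II, −0.085 and −0.058 in complex III, −0.088 and −0.036 in complex IV, and −0.10 and −0.048 in complex V. L1-Tg arrays thus fell among or near the 2 remaining WT arrays. Within any 1 array the highest and lowest complex differed by at most 0.076.

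**Figure D2:**
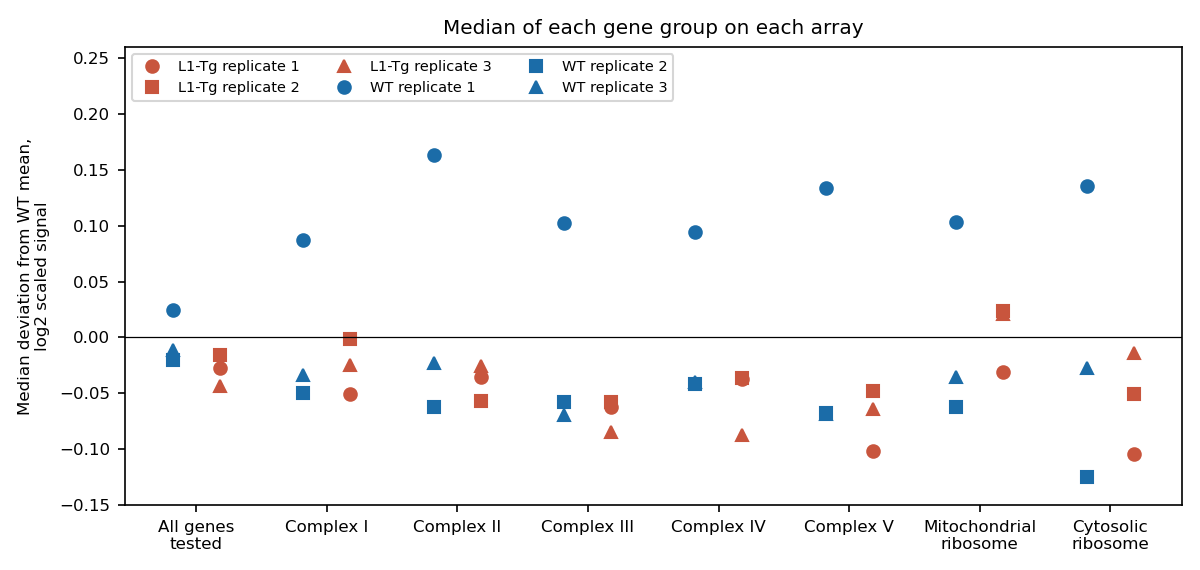
Each point is 1 array, given as the median over the genes of a group of the deviation from their WT mean, in log2 scaled signal. WT replicate 1 (blue circles) lies above the other 5 arrays in every complex and in both ribosomal groups.

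Without WT replicate 1 the subunit median was −0.0075, and 41 of 81 subunits were lower, 50.6%, beside 52.4% of all genes. Complex I then had a median of 0.0090, complex II of 0.030, complex III of −0.051, complex IV of −0.032 and complex V of −0.025. WT replicate 1 held the highest of the 6 values for 59 of 81 subunits, 72.8%, where it did so for 26.5% of all genes tested. It was highest for 72 of 78 cytosolic ribosomal protein genes and 42 of 77 mitochondrial ones. For the cytosolic ones this count was 26 after quantile normalization and 25 with array medians, where L1-Tg replicate 3 was highest for 27 and 49. It was 33 without scaling, 52 in the deposited value table and 67 after normexp. The share for the subunits was 23.5% after quantile normalization beside 20.7% of all genes, 23.5% with array medians beside 13.1%, and 17.3% without scaling beside 12.7%. It was 37.0% in the deposited value table beside 16.2%, and 61.7% after normexp beside 28.3%.

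**Figure D3:**
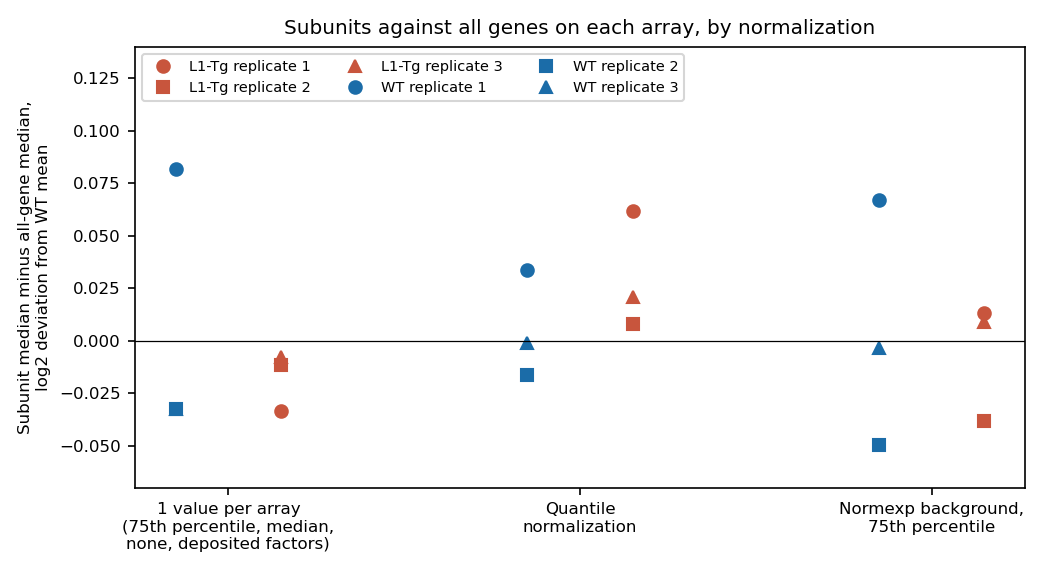
Each point is 1 array, given as the subunit median minus the median of all genes tested, both as log2 deviations from the WT mean. WT replicate 1 stands at 0.082 under any scaling by 1 value per array and at 0.067 after normexp, while after quantile normalization it stands at 0.034 and L1-Tg replicate 1 at 0.062.

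Complex I takes electrons from NADH at a flavin held by Ndufv1 and passes them along iron-sulfur clusters of the other core subunits. Ndufv1 had 6.88, 6.79 and 6.81 in L1-Tg mice and 7.08, 7.00 and 7.02 in WT mice. Every L1-Tg array lay below every WT array, by a mean of −0.21 (SE 0.085), which is 86.6% of WT (95% interval 75.1% to 99.7%, limma unadjusted p = 0.0465, adjusted p = 0.556). After quantile normalization, with array medians and without scaling its groups overlapped, and the difference was −0.088, −0.10 and −0.15. Of the 7 nuclear core subunits 6 were lower and 1 was higher, and their median was −0.065, or 0.0095 after quantile normalization. The higher one was Ndufs1, the largest iron-sulfur subunit, at 0.069.

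The 29 accessory subunits of complex I, which surround and stabilize the core, had a median of −0.029, with 18 lower and 11 higher, and of 0.062 with 10 lower and 19 higher after quantile normalization. Ndufb8, in the membrane arm, had 6.58, 6.69 and 6.61 in L1-Tg mice and 6.98, 6.72 and 6.92 in WT mice. The groups did not overlap, although L1-Tg replicate 2 and WT replicate 2 lay close, and the difference was −0.25 (SE 0.10, limma adjusted p = 0.561). Ndufb3, another membrane arm subunit, had 5.37, 5.38 and 5.38 in L1-Tg mice and 5.26, 5.28 and 5.13 in WT mice. Its difference was 0.15 (SE 0.088, limma adjusted p = 0.628), and all L1-Tg arrays lay above all WT arrays. Ndufa9, near the ubiquinone site, differed by −0.12 without overlap, and Ndufb11 by −0.15 with overlap, where a second probe gave −0.019.

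Complex II also serves the tricarboxylic acid cycle and has no subunit from mitochondrial DNA. The flavoprotein Sdha differed by −0.012 and the iron-sulfur protein Sdhb by −0.070. The membrane anchors Sdhc and Sdhd differed by 0.0044 and −0.055. The groups overlapped for all 4 genes, where 15.9% of all genes tested had groups without overlap. The 95% limma intervals of the 4 genes ran from −0.36 at the lowest to 0.31 at the highest.

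Among the electron-carrying subunits of complex III, Cyc1, which holds the heme of cytochrome c1, had 6.53, 6.54 and 6.38 in L1-Tg mice and 6.82, 6.49 and 6.66 in WT mice. The WT array with 6.49 fell among the L1-Tg arrays, and the difference was −0.18 (SE 0.12, limma adjusted p = 0.657). Without WT replicate 1 it was −0.095. Uqcrfs1, the Rieske iron-sulfur protein, differed by 0.025. All 7 accessory subunits had a negative difference, with a median of −0.079, whereas 2 did after quantile normalization or with array medians. In 1 of them, the hinge protein Uqcrh, the groups did not overlap (−0.12), and a second probe gave −0.034. Uqcrc1 differed by −0.13, Uqcr10 by −0.087 and Uqcr11 by −0.079. After quantile normalization Uqcrh stood at −0.010 with overlap, and Uqcr10 and Uqcr11 at 0.034 and 0.021.

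Complex IV held the 3 members with the largest standard errors, the tissue isoforms Cox7a1, Cox6a2 and Cox4i2. The 11 widely expressed subunits had a median of −0.035, or 0.077 after quantile normalization. At the 75th percentile scale none had groups that did not overlap, beside 15.9% of all genes tested in either direction. Their differences ran from −0.12 for Cox8a, where a second probe gave 0.069, to 0.11 for Cox7a2. Ndufa4, once counted in complex I, differed by 0.060.

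Of the 7 tissue isoforms, 4 were measured and 3 were not tested. Cox7b2 and Cox8c, isoforms of testis, were well above background on 0 arrays, and Cox8b, an isoform of heart and skeletal muscle in rodents, on 1 L1-Tg array. Cox6a2, the heart and skeletal muscle isoform, had −2.42, −2.58 and −2.01 in L1-Tg mice and −3.07, −2.57 and −2.97 in WT mice. The groups overlapped at 1 pair of arrays, and the difference was 0.53 (SE 0.20, limma unadjusted p = 0.0347, adjusted p = 0.542). It fell to 0.17 after normexp background correction.

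Cox7a1, also an isoform of heart and skeletal muscle, had 0.92, 1.20 and 1.20 in L1-Tg mice and 1.99, 1.11 and 1.71 in WT mice. Only WT replicates 1 and 3 stood above the L1-Tg arrays, and the difference was −0.50 (SE 0.23, limma adjusted p = 0.580), or −0.30 without WT replicate 1. Of 8 skeletal muscle markers 4 were well above background on no array, including Ckm, and the summed signal was 0.528 to 0.616 in L1-Tg mice and 0.545 to 0.755 in WT mice. Of 5 white adipose markers 1 was above background on all arrays, and their summed signal was 3.03 in WT replicate 1, 0.622 in WT replicate 3 and 0.189 in WT replicate 2. In L1-Tg mice the white adipose sum was 0.219, 2.09 and 0.123. The summed signal of 5 brown adipose markers was 6.04, 13.8 and 9.11 in WT replicates 1 to 3. In L1-Tg replicates 1 to 3 it was 12.0, 13.9 and 8.62. Of these brown adipose markers 2, Ucp1 and Dio2, were well above background on no array. The part of these tissues in the isoform values was not tested. In RNA of whole liver, fewer cells of a type and less RNA per cell cannot be told apart.

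Cox6b2, an isoform of testis, had −0.70, −0.68 and −0.77 in L1-Tg mice and −0.55, −0.49 and −0.58 in WT mice. The groups did not overlap, and the difference was −0.18 (SE 0.085, limma adjusted p = 0.582). Cox4i2, the isoform of lung, had 0.53, 0.68 and 0.38 in L1-Tg mice and 0.59, 1.13 and 0.62 in WT mice. Its difference of −0.25 (SE 0.17) became −0.075 without WT replicate 2, the highest array. Their widely expressed partners Cox6b1 and Cox4i1 differed by −0.052 and −0.088.

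**Figure D4:**
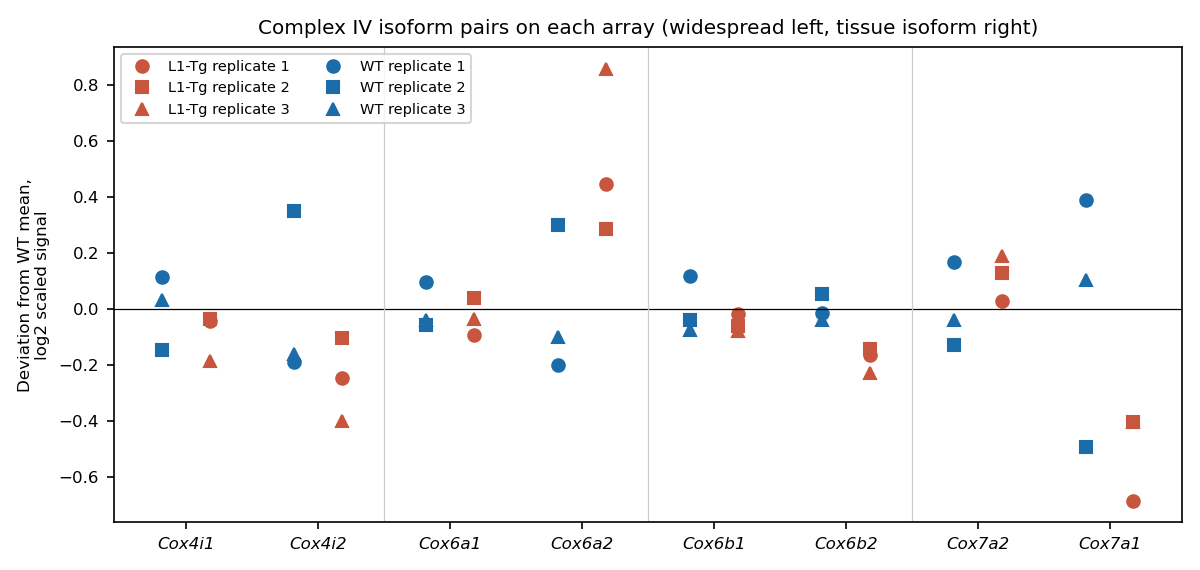
Each point is 1 array, given as the deviation of 1 gene from its WT mean in log2 scaled signal, for 4 pairs of complex IV isoforms. The widely expressed genes stay within 0.2 of 0, whereas Cox6a2 and Cox7a1 spread beyond 0.4.

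Complex V consists of a catalytic F1 head and a membrane-bound Fo part joined by stalks. All 5 F1 subunits had a negative difference, with a median of −0.089, whereas 1 did after quantile normalization and 2 with array medians. Atp5b, the catalytic beta subunit, had 8.50, 8.49 and 8.43 in L1-Tg mice and 8.64, 8.63 and 8.54 in WT mice. The groups did not overlap, with a difference of −0.13 (SE 0.086, limma adjusted p = 0.657), and it stood at 0.041 after quantile normalization. Atp5d of the central stalk differed by −0.13, also without overlap, although L1-Tg replicate 2 at 5.8971 and WT replicate 2 at 5.8975 nearly met. The alpha subunit Atp5a1 differed by −0.089.

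The 12 subunits of Fo and the peripheral stalk had a median of −0.088, with 8 lower and 4 higher, and of 0.021 with 5 lower and 7 higher after quantile normalization. Atp5h, in the peripheral stalk, had 7.56, 7.49 and 7.54 in L1-Tg mice and 7.71, 7.83 and 7.65 in WT mice. The groups did not overlap, and the difference was −0.20 (SE 0.092, limma adjusted p = 0.578), while a second probe of the gene gave −0.067. The 3 genes Atp5g1, Atp5g2 and Atp5g3 encode the same mature subunit c of the proton-conducting ring. They differed by −0.19, −0.12 and −0.094. In the last of these the groups did not overlap, although L1-Tg replicate 2 at 8.174 and WT replicate 3 at 8.177 nearly met. Atpif1, which inhibits the enzyme when it runs in reverse and lies outside the gene rule, differed by 0.12.

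In total 9 of the 91 members had all L1-Tg arrays below all WT arrays, 9.89% beside 8.63% of all genes, and 3 had them above, 3.30% beside 7.28%. After quantile normalization 2 members lay below, beside 5.83% of all genes, and 17 above, 18.7% beside 10%. Of the 12 genes, Ndufb3 kept its groups apart in the same direction under all 6 normalizations tried, and Cox6b2 and the assembly factor Ndufaf7 under 5 of them. The other 9 were apart under 1 to 3 of the 6. The difference index used in the study is the difference of the mean linear signals over the sum of the 2 standard deviations. Computed on signals scaled to the 75th percentile, it passed 0.7 upward in 6 members, 6.59% beside 11.8% of all genes. It passed −0.7 downward in 17 members, 18.7% beside 14.7%. This split also followed the scaling, with 15 members up (15.9% of all genes) and 11 down (9.37%) in the deposited value table. It was 22 up (16%) and 5 down (9.99%) after quantile normalization, and 11 up (19.5%) and 1 down (4.91%) with array medians. At the 75th percentile scale the largest modulus among the named genes was that of Ndufv1, −2.38.

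Probes of the same gene differed by about as much as the genotypes did. Of 23 members with more than 1 probe past the filter, 10 had probes with opposite signs, and the median range between probes of a gene was 0.079.

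The assembly factors of complex I act on the growing enzyme and leave it. Of the 8 genes Ndufaf1 to Ndufaf8, 6 had a positive and 2 a negative difference, with a median of 0.069. That median lay between 0.069 and 0.18 under the 6 normalizations, where the median of all genes lay between −0.031 and 0.077. A second probe of Ndufaf4 gave −0.031, where the counted probe gave 0.087. Ndufaf7, a methyltransferase for a core subunit, had 1.93, 2.01 and 2.16 in L1-Tg mice and 1.93, 1.82 and 1.76 in WT mice (difference 0.20, SE 0.10, limma adjusted p = 0.608). The lowest L1-Tg array lay just above the highest WT array. Ndufaf2 differed by 0.11, also without overlap. Cox7a2l differed by −0.038 and Ndufa4l2 by −0.16, both with overlap. The 40 tested assembly factors outside the gene rule had a median of 0.0067, with 22 higher and 18 lower. Of these factors 0 passed the adjusted p in limma, beside 0.13% of all genes tested. Their median was 0.039 with 28 higher after quantile normalization, and 0.12 with 33 higher with array medians. At an unadjusted limma p under 0.05 there were 1 higher gene of the 40, Cox19, and 1 lower gene, Dmac2. Among all genes tested 4.54% were higher and 4.32% lower at that p.

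None of the neighboring mitochondrial lists held a gene past the adjusted p in limma, where 0.13% of all genes tested passed it. At so low a share, the absence of calls says little about lists of this size. The 13 enzymes of the tricarboxylic acid cycle had a median of −0.051 (4 higher, 9 lower), which was 0.028 after quantile normalization, and the 19 genes of electron carriers and coenzyme Q synthesis had 0.047 (12 higher, 7 lower). The 77 mitochondrial ribosomal proteins had −0.0032, or 0.044 after quantile normalization. Among 8 tested carriers and uncoupling proteins the median was 0.014, and the highest difference was that of Ucp3, 0.82 (limma adjusted p = 0.575).

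The 13 regulators of mitochondrial biogenesis had a median of −0.068, with 8 lower and 5 higher. It was −0.046 after quantile normalization, −0.014 without scaling, −0.031 after normexp and −0.020 in the deposited value table. Only with array medians was it positive, at 0.040. The coactivator Ppargc1a had 0.74, 1.01 and 0.50 in L1-Tg mice and 1.24, 0.99 and 2.14 in WT mice. WT replicate 2 fell among the L1-Tg arrays, and the difference was −0.71 (SE 0.31, limma adjusted p = 0.566). Its relative Ppargc1b differed by −0.26 without overlap of the groups (limma unadjusted p = 0.0430, adjusted p = 0.552). Nrf1 differed by −0.051, Gabpa by 0.025 and Yy1 by 0.021. These 3 factors are known to bind promoters of respiratory chain genes. The 13 protein-coding genes of mitochondrial DNA were not analysed here.

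The promoters were read for the letters these factors bind, in the RefSeq windows of GRCm38.p6 that run from 250 bases before a start to 50 after it. Of the 94 genes 76 had a window, and 27025 genes had one in all. The NRF1 core GCGCATGC, on either strand, stood in 15.8% of the members and 3.05% of all genes. CCGGAAG, for GABPA, stood in 25.0% and 9.93%, AAGATGGC, for YY1, in 14.5% and 3.19%, and TCAAGGTCA, for ERRA, in 2.63% and 0.466%. Members with and without the NRF1 letters had median differences of −0.036 and −0.052. For the GABPA letters these medians were −0.055 and −0.040, and for the YY1 letters 0.0040 and −0.052. A match is a match of letters, and binding was not measured. The following 30-base stretches, each 5′ to 3′ on the strand of its gene and with the NRF1 letters in capitals, show the match in 1 member or more of complexes I, II, IV and V. Capitals of 10 bases are matches on both strands that overlap. Counted back from the start, the stretches run from base 70 to 41 for Ndufa11, 65 to 36 for Sdhb, 171 to 142 for Cox6a1, 52 to 23 for Atp5g2 and 60 to 31 for Atp5k.
Ndufa11 (chr17:56717692-56717721, plus strand): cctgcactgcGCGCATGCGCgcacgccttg
Sdhb (chr4:140961206-140961235, plus strand): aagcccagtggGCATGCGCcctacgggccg
Cox6a1 (chr5:115349100-115349129, minus strand): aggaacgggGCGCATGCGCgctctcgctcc
Atp5g2 (chr15:102671070-102671099, minus strand): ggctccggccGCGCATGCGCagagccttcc
Atp5k (chr5:108434430-108434459, minus strand): tttcactgcgGCGCATGCGCctttctggct
These 5 genes differed between genotypes by −0.040, −0.070, −0.031, −0.12 and −0.13 in the order given. In none of them were the groups apart, beside 15.9% of all genes tested in either direction. Second probes gave −0.036 for Sdhb, −0.13 for Atp5g2 and 0.014 for Atp5k.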

How the data were processed

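Liver RNA of male WT and L1-Tg mice was compared on 3 one-color arrays per group (Agilent SurePrint G3 mouse). The authors read the scans with Feature Extraction 10.10.1.1. Its deposited processed signal is a linear intensity with background removed per array and without scaling from one array to another. The deposited value table holds intensities, which are those signals multiplied by a constant for each array. The deposited marks of 0 or 1 for spots well above background, saturated or non-uniform were used as given.

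Control spots were left out, non-uniform spots were set to missing and repeated probes were averaged. RefSeq-type names stood on 28685 probes, and 27235 of these led to a symbol (RefSeq, GRCm38.p6). The 75th percentile of each array was subtracted from the log2 signals. Each gene took the brightest of its probes that exceeded background clearly on every array of either genotype. The test was limma 3.58.1 (lmFit, then eBayes, two-sided) under R 4.3.3, with p-values adjusted by Benjamini-Hochberg over 22351 genes and a threshold of 0.05. Because the number of arrays limits precision, 95% limma intervals are given. Figures used matplotlib 3.10.9.

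Scaling, background correction, filter, probe choice, replicate block, variance model, index threshold and left-out arrays were varied. The members and gene lists were chosen with earlier results of these data known. The rule for named genes took the 5 tested subunits with the smallest p in a complex (4 in complex II), the complex IV isoform pairs, Atpif1, Cox7a2l, Ndufa4 and Ndufa4l2. Values by array are printed for only some of these, and other genes were named after their values were seen. Medians and counts over lists are descriptions.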

Additional observations from a re-analysis of the deposited data

How the results depend on the processing

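No member passed the adjusted threshold in limma under any alternative tried. With unmoderated variances no gene on the array passed it, so that fit says nothing about the members. In the other fits few of all genes passed it, from 9 without WT replicate 2 to 35 after quantile normalization. A count of 0 among 91 members therefore says little about them there too. Of 372 values of the 33 named genes that an alternative moved at all, 332 kept their direction and 40 did not, in 13 genes with differences from −0.13 to 0.0044. Over the subunits and complexes I to V the medians were 0.037, 0.034, 0.063, 0.034, 0.024 and 0.037 after quantile normalization. With array medians they were 0.056, 0.067, 0.076, 0.030, 0.056 and 0.020, where 1 value per array shifts all genes alike. After quantile normalization the subunits also moved against all genes, from −0.021 to 0.022, and the cause was not tested. Members at an unadjusted limma p under 0.05 numbered 1 with array medians, with no scaling and with no filter (8.46%, 5.51% and 6.71% of all genes), 4 after normexp (9.55%) and 0 with the replicate block (8.28%). Members whose groups did not overlap numbered 19 after quantile normalization (15.9% of all genes), 20 in the deposited value table (15.3%), 6 with array medians (13.9%) and 2 with no scaling (8.35%). Members past the difference index numbered 12 with array medians (24.4% of all genes), 6 with no scaling (17.1%) and 10 at a threshold of 1 (13.2%). The causes of these were not tested.

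Signs turned after quantile normalization for Sdhb (0.022), Sdhd (0.047), Sdha (0.079), Uqcr10 (0.034), Uqcr11 (0.021), Cox8a (0.021), Atp5b (0.041), Cox4i1 (0.024), Cox6a1 (0.15), Cox7b (0.093) and Cox7a2l (0.047). With array medians they turned for Sdhb (0.038), Sdhd (0.054), Sdha (0.097), Uqcr10 (0.022), Uqcr11 (0.030), Cox4i1 (0.021), Cox6a1 (0.077), Cox6b1 (0.056), Cox7b (0.073) and Cox7a2l (0.070). Without scaling they turned for Sdha (0.043), Cox6a1 (0.023), Cox6b1 (0.0024), Cox7b (0.019) and Cox7a2l (0.016), in the deposited value table for Sdha (0.036), Cox6a1 (0.017), Cox7b (0.013) and Cox7a2l (0.0099), and after normexp for Sdha (0.0067).

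With 1 array left out, 0 to 3 members had an unadjusted limma p under 0.05 (4.97% to 12.4% of all genes), 16 to 29 had groups that did not overlap (21.2% to 31.6%) and 27 to 33 passed the index (28.2% to 38.3%). Without WT replicate 1, 19 members lay above the remaining WT arrays (13.7% of all genes) and 9 below (13.7%). Without WT replicate 2 these were 5 (10.5%) and 24 (16.2%), and without WT replicate 3 they were 4 (13.9%) and 24 (17.8%). The index passed upward in 23 members (16.9%) and downward in 10 (16.8%) without WT replicate 1. The subunit median ran from −0.071 to −0.0075, highest without WT replicate 1, and the largest gap between complexes within an array from 0.076 to 0.12. Differences crossed 0 for Sdhd (−0.16 to 0.054), Sdha (−0.047 to 0.024), Sdhc (−0.089 to 0.12), Cox6a1 (−0.066 to 0.017) and Cox6b1 (−0.091 to 0.0069).

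Arrays with the same replicate number did not deviate together (r = −0.16, 0.11 and 0.021 across genes), so the numbers were not taken as pairs. With the replicate block 0 members and 11 of all genes passed the adjusted threshold in limma, and the subunit median was −0.052. Signal over background kept 3 members out of the test, and the 95% interval lay inside ±0.5 for 87 of the 91 tested, all but Cox7a1, Cox6a2, Cox4i2 and Ndufa4l2.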
